A study of Homo sapiens with 24 samples.

Results

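The 24 h to 2 d interval of oncogenic RAS activation was followed on 6 of the 24 arrays of a time course, the 3 arrays of cells held for 24 h in 4-hydroxytamoxifen (4-OHT) and the 3 arrays of cells held for 2 d, set against each other batch by batch across all 10893 genes tested. The cells were IMR90, a line of fibroblasts from human fetal lung, and all of them expressed RAS with the G12V change as an ER:RAS-G12V fusion with the estrogen receptor, which stays inactive until 4-OHT binds it. Untreated cells made the 0 h group, and the other 7 groups had been in 100 nM 4-OHT for 2, 8 or 24 h or for 2, 4, 6 or 8 d. Each group held 1 array from each of the biological batches A, B and D. Both groups compared here had the construct and the drug, so the interval compares a later with an earlier time in 4-OHT. Untreated cells of the later times were not analysed here, so time in 4-OHT and time in culture cannot be told apart.

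In fibroblasts, active RAS signals through RAF, MEK and ERK and first drives division. Over the following days the cells stop dividing for good and enter oncogene-induced senescence, with loss of cell-cycle gene expression, a remodelled nuclear lamina, a larger lysosomal compartment and secretion of cytokines. Division genes are switched on in waves: E2F factors, held in check by the RB family, act at the start of DNA replication, and a complex of B-MYB and FOXM1 acts on genes of G2 and mitosis. The array values measure RNA levels and not division itself.

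All values are log2 intensities that the authors normalized, each on a scale of its own probe, so levels are compared within a gene. Fold changes are given as log2 fold change ± standard error from a limma fit of all 24 arrays (n = 3 arrays per time point) with batch as a block, and a gene was called where the Benjamini-Hochberg adjusted p over all genes was under 0.05. Intensities carry the array's background, so the change of a dim gene is understated. Between 26.3% and 29.2% of probes were above background on each array. On the first principal component of all 24 arrays, which held 65.9% of the variance, the 24 h arrays lay between −30.4 and −26.1, overlapping the 0 h arrays, and the 2 d arrays lay between −11.8 and −7.71. On the second, with 10.2%, the 24 h arrays (15.7 to 18.9) lay apart from the 0 h arrays (−14.7 to −10.2) and overlapped the 2 d arrays (16.6 to 20.9). For 24 h against 0 h 2113 genes were called. All 10 fibroblast markers listed were above background on all 6 arrays, with a summed linear level of 36123 to 39657 at 24 h and 36946 to 38848 at 2 d. Of the markers of other cell types, KRT18 of 12 epithelial genes, TEK of 10 endothelial genes, and CD68 and CSF1R of 11 immune genes were above background on all 6 arrays. Epithelial EPCAM, endothelial KDR, PECAM1, ROBO4, TIE1 and VWF, and immune PTPRC were above background on some of them, and the rest on none. The summed levels were 1606 to 1947 at 24 h and 1390 to 1448 at 2 d for the epithelial list, 860 to 945 and 745 to 774 for the endothelial list, and 1844 to 1943 and 2586 to 2649 for the immune list. HRAS was measured at 9.79, 9.91 and 9.37 at 24 h and at 9.58, 9.36 and 9.76 at 2 d in batches A, B and D, and did not pass the test (−0.13 ± 0.13, adjusted p = 0.609). Its value went down in batches A and B and up in D; it was −0.38 without batch D (adjusted p = 0.0328) and 0.09 without batch B (adjusted p = 0.838). Whether its probe reads the RAS of the fusion was not tested.

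Between 24 h and 2 d, 47 of 53 genes of G2 and mitosis, 21 of 43 of DNA replication and 6 of 13 smooth muscle genes fell. The chemokines CCL2 and CXCL8, the amino acid transporter SLC6A15, 11 of 20 cholesterol genes and 12 of 43 lysosomal genes rose. Of the 10893 genes, 1453 (13.3%) were called, 807 (7.41%) higher and 646 (5.93%) lower at 2 d. Among them 80 had changed at least 2-fold, 28 upward and 52 downward, and 1435 of the 1453 moved the same way in all 3 batches. A call itself favours genes whose batches agree, so the last count is no separate support. The median log2 fold change of all genes was 0.01. With batch A left out of the fit 164 genes were called, all of them among the 1453, and without batch B 621 were called. Without batch D 1875 were called, 1186 of them among the 1453. Leaving out 1 array of these 6 gave 884 calls without the 24 h array of batch B, 920 without that of batch A, 927 without the 2 d array of batch A and 922 without that of batch B.

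**Figure D1:**
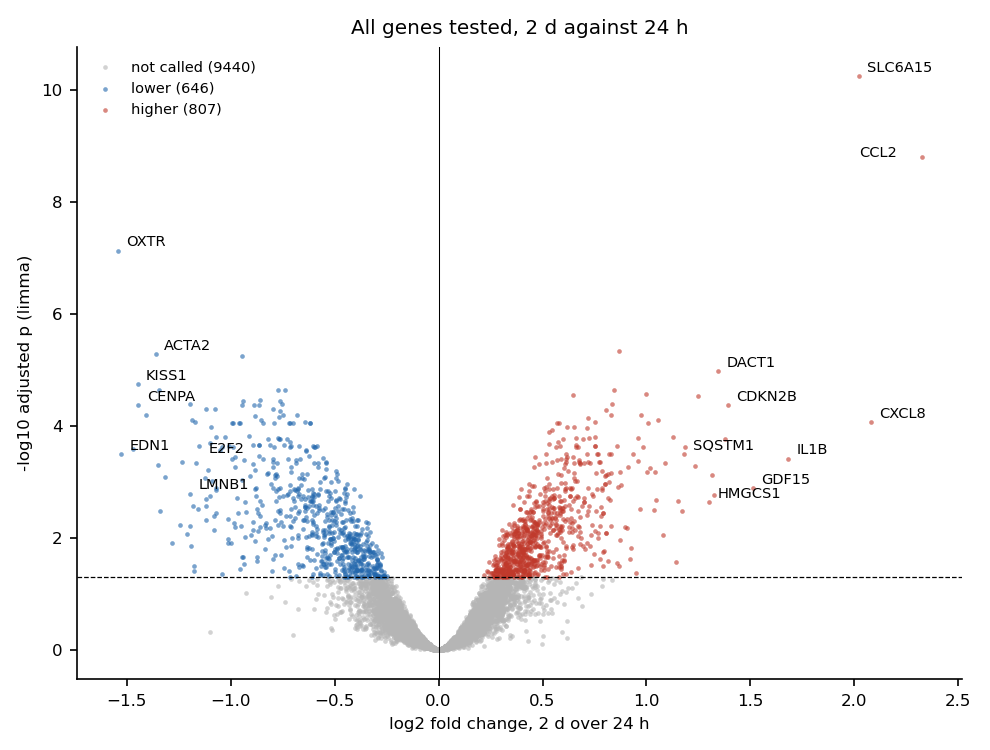
Each point is a gene, with its log2 fold change (2 d over 24 h) on the x axis and −log10 of the limma adjusted p on the y axis; the dashed line marks the threshold of 0.05, red points are the 807 genes called higher and blue points the 646 called lower. SLC6A15 and CCL2 stand highest on the right and OXTR on the left.

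The G2 and mitosis list held 53 measured genes, and 47 of them fell, beside 5.93% of all genes; the other 6 also had negative values, and the median of the list was −0.96. CENPA, the histone variant that marks centromeres, measured 9.81, 9.71 and 9.74 at 24 h and 8.42, 8.53 and 7.98 at 2 d in batches A, B and D, a fall of 1.44 ± 0.18 on the log2 scale (adjusted p = 4.16e-05). KIF20A, a kinesin of cytokinesis, went from 10.25, 10.28 and 10.37 to 9.06, 9.07 and 8.81 (−1.32 ± 0.24, adjusted p = 0.000809). PLK1, the kinase that drives mitotic entry, went from 8.28, 8.43 and 8.19 to 7.32, 7.44 and 7.27 (−0.96 ± 0.13, adjusted p = 8.83e-05). In each of these genes every 2 d array lay below every 24 h array, and 52 of the 53 list members had groups that did not overlap; over all genes tested, 34.9% did not overlap, counting both directions. FAM83D (−1.35 ± 0.23), CDCA3 (−1.24 ± 0.21) and NUSAP1 (−1.24 ± 0.29), which act at the spindle or in mitotic entry, were also among the 15 largest falls. FOXM1, a transcription factor of this gene set, fell by 0.71 ± 0.11 on the log2 scale, and the proliferation marker MKI67 fell by 0.71 ± 0.11. CDC20, an activator of the anaphase-promoting complex, fell short of the threshold at −0.81 ± 0.32 (adjusted p = 0.11). Without batch A, KIF20A (adjusted p = 0.0519) and NUSAP1 (adjusted p = 0.122) lost their calls, and 12 of the list's members were called; without batch B, 34 were.

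Of 18 cyclins, kinases and their regulators, 13 fell, beside 5.93% of all genes, with a median of −0.66 over the list. CCNB1, the cyclin of mitotic entry, measured 10.53, 10.80 and 10.13 at 24 h and 9.41, 9.42 and 9.27 at 2 d (−1.12 ± 0.22, adjusted p = 0.00202). CCNA2, the cyclin of S phase and G2, fell by 1.20 ± 0.28 on the log2 scale and CDK1, the kinase both activate, by 1.18 ± 0.35. CCNB2 fell by 0.95 ± 0.27 on the log2 scale (adjusted p = 0.0219). CCND1, the RAS-responsive cyclin of G1, stayed at 13.73, 13.66 and 13.74 against 13.53, 13.58 and 13.51, a value of −0.17 ± 0.09 that did not pass (adjusted p = 0.205). CCNE1, which opens S phase with CDK2, also did not pass (−0.12 ± 0.11, adjusted p = 0.525). Its relative CCNE2 fell by 0.76 ± 0.17 on the log2 scale on the probe used and gave −0.26 on a second probe that did not pass. Without batch A, CCNB1 (adjusted p = 0.0876), CCNA2 (0.119) and CCNE2 lost their calls, CCNE2 also without batch B (the higher of its 2 adjusted p being 0.127), and 3 list members were called. CDK1 lost its call in 8 and CCNB2 in 6 of the 9 fits that left out an array or a batch, with adjusted p up to 0.257 and 0.21; the second CDK1 probe gave −1.10.

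E2F2, an activator E2F, measured 7.23, 7.03 and 7.31 at 24 h and 6.32, 6.37 and 6.35 at 2 d. The groups did not overlap, and the 2 d arrays lay close together. E2F2 fell by 0.85 ± 0.14 on the log2 scale (adjusted p = 0.000385). That was the largest fall among the 13 measured E2F factors, RB family members and partners, of which 6 fell, beside 5.93% of all genes. E2F1, another activator, fell by 0.58 ± 0.13 on the log2 scale and RBL1, an RB relative, by 0.50 ± 0.13. E2F8, a repressor E2F, was above background on all 3 arrays at 24 h and on none at 2 d, so its level was at least 1.41-fold lower at 2 d (adjusted p = 0.000236). RB1 itself gave −0.37 ± 0.16 and did not pass (adjusted p = 0.134). MYC, a growth-promoting transcription factor, gave −0.24 ± 0.10 (adjusted p = 0.132). Without batch A the calls of E2F2 (adjusted p = 0.0667) and E2F1 (adjusted p = 0.107) were lost, and RBL1 lost its call in 4 of the 9 fits with an array or batch left out.

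Of 43 measured genes of DNA replication and origin licensing 21 fell, beside 5.93% of all genes. Their values lay between −0.79 and −0.34, and the list median was −0.44. GINS2, a subunit of the replicative helicase, measured 10.10, 10.05 and 10.07 at 24 h and 9.32, 9.43 and 9.10 at 2 d (−0.79 ± 0.22, adjusted p = 0.02). RFC3, a subunit of the loader that places PCNA on DNA, went from 8.71, 8.71 and 8.57 to 7.88, 8.03 and 7.77 (−0.77 ± 0.15, adjusted p = 0.00185). MCM10, which activates the helicase, fell by 0.72 ± 0.23 and PRIM1, the primase subunit, by 0.64 ± 0.14 on the log2 scale. Within this list the call depended on single arrays: without batch A none of the 43 members was called, without batch B 9 were, and GINS2 lost its call in 5 and MCM10 in 8 of the 9 fits with an array or batch left out. MCM6 did not pass with all arrays (−0.29 ± 0.10, adjusted p = 0.0587) and gained a call in 5 of 16 alternatives: no block, median centring, and without batch D or either of its 24 h and 2 d arrays.

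Of 21 measured nucleotide synthesis genes 6 fell, all of them steps that make DNA precursors, with a list median of −0.23. TYMS, thymidylate synthase, measured 10.82, 10.80 and 10.93 at 24 h and 9.97, 9.87 and 9.55 at 2 d (−1.05 ± 0.17, adjusted p = 0.000273). RRM2, the regulated subunit of ribonucleotide reductase, fell by 1.21 ± 0.30 on the log2 scale, with the widest step in batch D, where it went from 9.88 to 7.96. TK1, thymidine kinase, fell by 0.88 ± 0.17 and RRM1, the large reductase subunit, by 0.61 ± 0.15 on the log2 scale. RRM1 lost its call without batch A and without batch B (adjusted p up to 0.123), and RRM2 without the 24 h or the 2 d array of batch D and without batch A (adjusted p up to 0.0876). Of 24 homologous recombination and Fanconi repair genes 12 fell and all 24 had negative values, with a median of −0.34; FANCI, which is ubiquitinated at stalled forks, fell by 0.88 ± 0.23 and UBE2T, the ubiquitin-conjugating enzyme of the pathway, by 0.77 ± 0.15 on the log2 scale. Without batch A UBE2T lost its call (adjusted p = 0.0917), and FANCI lost its call in 4 of the 9 fits. The 27 measured histone genes did not move together: 3 rose (11.1%) and 1 fell (3.70%), beside 7.41% and 5.93% of all genes. Their median was −0.05. The risers H2BC5 (0.51 ± 0.15, with 0.05 on a second probe), H2BC21 (0.40 ± 0.11) and H2AC18 (0.40 ± 0.12) and H2BC7, which fell by 0.35 ± 0.09 on the log2 scale, each lost their call in at least 5 of the 9 fits.

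Promoters of some genes that fell are shown because division genes carry short regulatory elements near their start sites. Promoter sequences came from RefSeq (GRCh38.p14), 1 start site a gene, and 8981 of the 10893 genes tested had one; only the 250 bases before the start were searched, on both strands. The motifs were an E2F element (TTTGGCGC, TTTCCCGC, TTTGCCGC or TTTCGCGC), a CCAAT box (CCAAT), the cell-cycle homology element CHR (TTTGAA), a sterol element (TCACNCCAC), the CArG box of SRF and the NF-kB site, the last 2 in their degenerate forms. Matches of different motifs overlapped in 37 promoters. An E2F element was found in 4.59% of all promoters, in 12 of 37 (32.4%) of the replication list, in 5 of 11 (45.5%) of the E2F list, and in 3 of 43 (6.98%) of the mitosis list. The CHR letters were found in 9.0% of all promoters, in 22 of 43 (51.2%) of the mitosis list and in 0 of 37 of the replication list. CCAAT was found in 35.6% of all promoters, in 30 of 43 (69.8%) of the mitosis list, and in 23 of 37 (62.2%) of the replication list. High shares were not confined to lists that fell: the histone list had E2F in 26.9%, CHR in 30.8% and CCAAT in 84.6% of promoters. CHR was found in 4 of 14 promoters (28.6%) of each of the immediate early and amino acid transporter lists, described below. Among promoters of all genes that fell, E2F was found in 8.95% and CHR in 110 of 525. Among those of all genes that rose, E2F was found in 1.94% and CHR in 33 of 671. A match is a description of the letters and not a bound site. In the following promoters, written 5′ to 3′ toward the start site, capitals mark the matches, on either strand, of the E2F element in E2F2 (chr1:23531234-23531483, minus strand) and GINS2 (chr16:85688955-85689204, minus strand), of all 3 motifs in CENPA (chr2:26785806-26786055, plus strand), and of CCAAT and CHR in CCNB2 (chr15:59104896-59105145, plus strand).
E2F2: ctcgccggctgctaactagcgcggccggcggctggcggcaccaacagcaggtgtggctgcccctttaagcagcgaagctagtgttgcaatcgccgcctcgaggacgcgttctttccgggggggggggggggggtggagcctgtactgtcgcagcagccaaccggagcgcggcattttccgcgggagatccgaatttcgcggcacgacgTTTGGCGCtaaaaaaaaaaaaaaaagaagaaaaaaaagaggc
GINS2: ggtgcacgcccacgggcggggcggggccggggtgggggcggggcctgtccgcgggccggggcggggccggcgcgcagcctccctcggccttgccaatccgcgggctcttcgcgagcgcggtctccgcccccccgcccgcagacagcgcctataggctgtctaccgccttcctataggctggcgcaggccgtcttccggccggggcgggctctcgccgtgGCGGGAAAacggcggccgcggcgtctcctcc
CENPA: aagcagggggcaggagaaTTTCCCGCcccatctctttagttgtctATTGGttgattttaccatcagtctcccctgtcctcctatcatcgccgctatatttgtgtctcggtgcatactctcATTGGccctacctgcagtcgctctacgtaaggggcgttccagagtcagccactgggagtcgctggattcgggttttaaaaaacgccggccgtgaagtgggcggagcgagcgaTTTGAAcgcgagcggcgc
CCNB2: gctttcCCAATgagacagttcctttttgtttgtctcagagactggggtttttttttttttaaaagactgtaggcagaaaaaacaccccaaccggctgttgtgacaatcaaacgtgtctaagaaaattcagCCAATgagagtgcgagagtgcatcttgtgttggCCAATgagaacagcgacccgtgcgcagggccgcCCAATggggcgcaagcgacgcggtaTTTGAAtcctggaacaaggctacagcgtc
E2F2 and GINS2 held 1 E2F match each, at positions −42 to −35 and −31 to −24 counted from the start (a CCAAT in GINS2 is not capitalised), CENPA held 4 matches, with CHR nearest the start, and CCNB2 held 4 CCAAT boxes upstream of 1 CHR.

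Of 18 measured genes of the nuclear lamina and of chromatin linked to senescence 10 fell, beside 5.93% of all genes, with a median of −0.36. HMGB2, a chromatin protein lost in senescence, measured 9.08, 9.10 and 9.03 at 24 h and 7.83, 7.85 and 7.49 at 2 d (−1.35 ± 0.15, adjusted p = 2.23e-05). LMNB1, lamin B1, went from 9.62, 9.67 and 9.52 to 8.39, 8.42 and 8.41 (−1.19 ± 0.23, adjusted p = 0.0016). For both genes every 2 d array was below every 24 h array, and for HMGB2 the batch D array stood lowest at 2 d. TMPO, a lamina-associated protein, fell by 0.91 ± 0.16 and EZH2, the Polycomb methyltransferase, by 0.76 ± 0.11 on the log2 scale. HMGA2, an architectural protein of senescence-associated chromatin, did not pass (−0.09 ± 0.10, adjusted p = 0.661). Without batch A 3 of the 18 were called lower and without batch B 7, and LMNB1 lost its call without batch A (adjusted p = 0.0806).

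**Figure D2:**
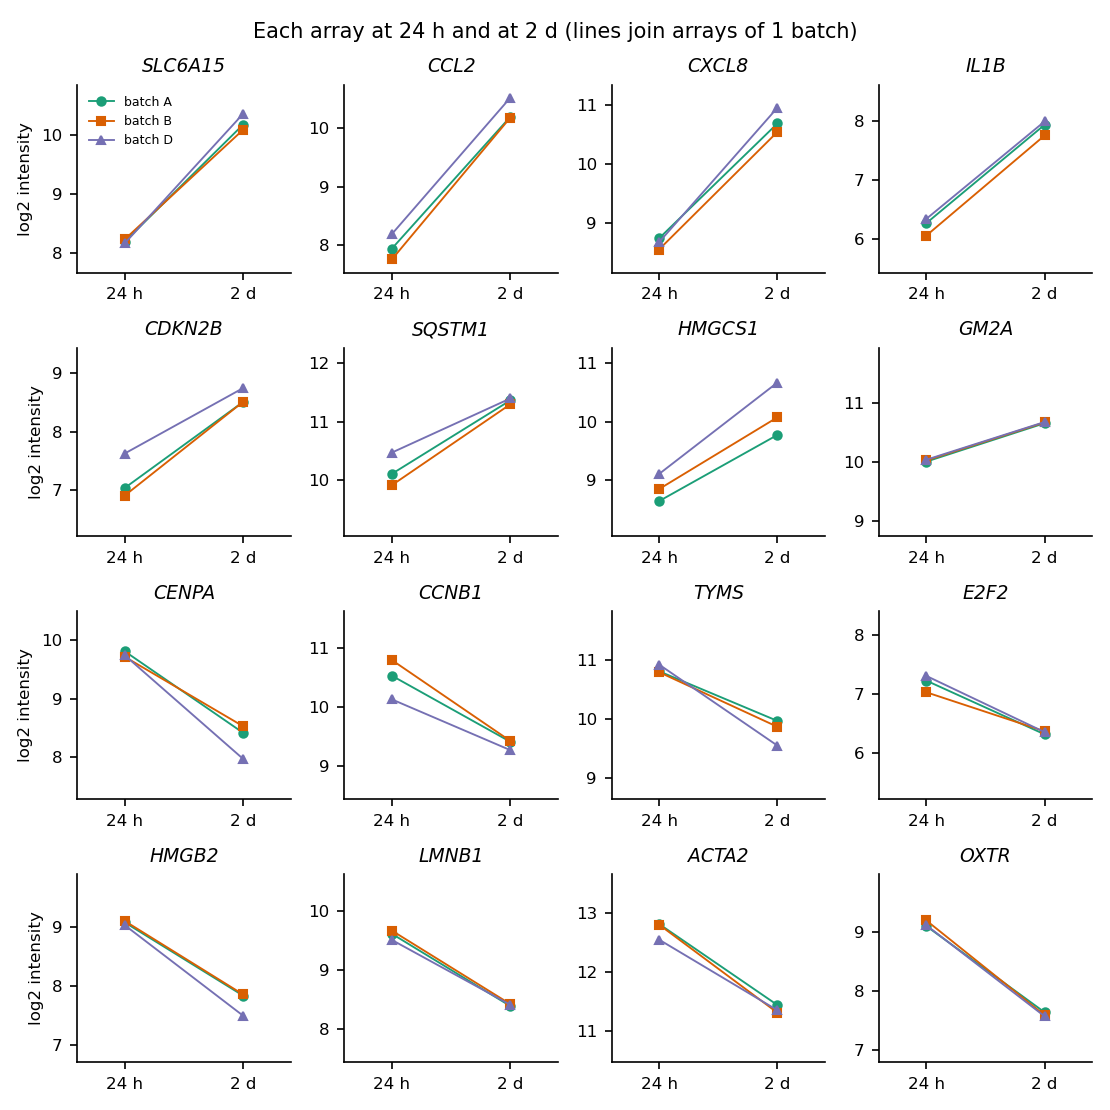
Log2 intensity (y axis) of 16 genes on each array at 24 h and at 2 d (x axis), with a line for each of the batches A, B and D; every panel spans the same number of log2 units. All 3 lines run the same way in each panel, with CCL2 at 7.76 to 8.19 before and 10.17 to 10.51 after, and CENPA at 9.71 to 9.81 before and 7.98 to 8.53 after. The rule for the largest changes required such agreement of most of these genes, and the others were called genes chosen for display.

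Of 13 measured smooth muscle genes 6 fell, beside 5.93% of all genes, with a median of −0.45. ACTA2, smooth muscle actin, measured 12.81, 12.80 and 12.55 at 24 h and 11.43, 11.30 and 11.35 at 2 d (−1.36 ± 0.14, adjusted p = 5.15e-06). CNN1, calponin, went from 7.90, 7.94 and 7.78 to 6.83, 6.83 and 6.67 (−1.10 ± 0.17, adjusted p = 0.000202). TAGLN, transgelin, fell by 0.80 ± 0.23 and MYL9, a myosin light chain, by 0.59 ± 0.14 on the log2 scale. Of 14 measured targets of YAP and SRF, the factors that answer cell tension, 5 fell, beside the same 5.93%, with a median of −0.32. CCN1, a matricellular YAP target, went from 11.17, 10.90 and 11.10 to 9.54, 9.75 and 9.66 (−1.41 ± 0.18, adjusted p = 6.26e-05). AXL, a receptor tyrosine kinase, fell by 0.80 ± 0.10 and CCN2, connective tissue growth factor, by 0.72 ± 0.14 on the log2 scale. ANKRD1, a YAP target, was above background on all 3 arrays at 24 h and on none at 2 d and was at least 1.55-fold lower. Without batch B the calls of CCN2 (adjusted p = 0.058) and ANKRD1 were lost, ANKRD1 also without batch A (adjusted p up to 0.138). TAGLN lost its call in 5 and MYL9 in 3 of the 9 fits, and without batch A 2 of the 13 smooth muscle genes were called and without batch B 3. CArG boxes were found in 3 of 11 promoters of each of these lists (27.3%) and in 1.01% of all promoters.

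Of 38 measured matrix genes 11 fell, beside 5.93% of all genes, and 2 rose, beside 7.41%, with a median of −0.20. DCN, the collagen-binding proteoglycan decorin, measured 12.16, 12.25 and 11.95 at 24 h and 11.01, 11.20 and 10.92 at 2 d (−1.07 ± 0.16, adjusted p = 0.000157), and its other 2 probes gave −0.97 and −1.21. LUM, lumican, fell by 1.03 ± 0.15, MFAP4, an elastic fibre protein, by 0.81 ± 0.15, and SPARC, a collagen-binding glycoprotein, by 0.79 ± 0.14 on the log2 scale. The risers were THBS2, thrombospondin 2 (0.78 ± 0.16), and LAMA4, a laminin chain (0.65 ± 0.11). COL1A1 (−0.16 ± 0.10, adjusted p = 0.336) and COL3A1 (0.09 ± 0.15, adjusted p = 0.761), the main fibrillar collagens, did not pass. Without batch A LUM (adjusted p = 0.0519), MFAP4 (0.0992) and SPARC (0.0854) lost their calls, and 1 of the 38 genes was called lower. Among the fibroblast markers THY1 fell by 0.34 ± 0.10 on the log2 scale and FAP (0.47 ± 0.11), PDGFRB (0.60 ± 0.15) and S100A4 (0.65 ± 0.17) rose, while the other 6 did not pass. FAP lost its call without batch A and without batch B, PDGFRB in 4 of the 9 fits, and S100A4 and THY1 in 6 each, with adjusted p up to 0.301. The list's median was 0.06.

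Receptors and secreted regulators were among the largest falls. OXTR, the oxytocin receptor, had the largest fall of all called genes that met the naming rule: it measured 9.11, 9.20 and 9.12 at 24 h and 7.64, 7.59 and 7.57 at 2 d (−1.54 ± 0.12, adjusted p = 7.44e-08). EDN1, the vasoconstrictor endothelin 1, went from 8.79, 8.67 and 8.70 to 7.07, 7.16 and 7.34 (−1.53 ± 0.24, adjusted p = 0.000318). FST, follistatin, which binds activin, went from 11.67, 11.63 and 11.51 to 10.25, 10.35 and 9.80 (−1.47 ± 0.23, adjusted p = 0.000254). In all 3 genes every 2 d array lay below every 24 h array. KISS1, the precursor of kisspeptin, fell by 1.45 ± 0.16 on the log2 scale, from 8.57, 8.38 and 9.37 to 7.36, 7.09 and 7.52, and its batch D array stood highest at 24 h. IGFBP3, an insulin-like growth factor carrier, fell by 1.34 ± 0.29 and DKK1, a WNT antagonist, by 1.28 ± 0.33 on the log2 scale. IGFBP3 lost its call without batch A (adjusted p = 0.136), and DKK1 without batch A, without the 24 h array of batch B and without the 2 d array of batch A (adjusted p up to 0.248).

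Of 20 measured TGF-beta targets and SMAD feedback genes 6 rose, with a median of 0.21, beside 7.41% of all genes called higher. SMAD6, which blocks BMP receptors, measured 6.84, 6.83 and 6.36 at 24 h and 7.27, 7.52 and 7.56 at 2 d (0.78 ± 0.22, adjusted p = 0.023). SMAD7, which blocks TGF-beta receptors, rose by 0.59 ± 0.17, and ID2, an inhibitor of basic helix-loop-helix factors, by 0.70 ± 0.19. TGFB3, a ligand, was above background on no array at 24 h and on all 3 at 2 d, and was at least 1.33-fold higher at 2 d. These calls rested on few arrays: SMAD6 and ID2 lost theirs in 5 of the 9 fits, SMAD7 in 6 and TGFB3 in 2 (without batch A and without batch B), with adjusted p up to 0.243.

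SLC6A15, a sodium-dependent transporter of branched-chain amino acids and proline, had the lowest p of all genes. It measured 8.19, 8.23 and 8.16 at 24 h and 10.18, 10.10 and 10.37 at 2 d. The arrays within a time point lay close together, and the groups did not overlap. It rose by 2.02 ± 0.10 on the log2 scale (adjusted p = 5.66e-11), and 2 other probes rose by 1.25 and 0.82. Its level had been 6.61 ± 0.15 (SD, n = 3) at 0 h and reached 10.95 ± 0.22 at 4 d. Of 18 measured amino acid transporters, SLC36A1 also rose (0.25 ± 0.08, a call lost in all 9 fits with an array or batch left out). SLC7A1, the cationic amino acid carrier, fell by 0.89 ± 0.12 on the log2 scale, and the list median was −0.03. The called shares, 11.1% higher and 5.56% lower, were near the 7.41% and 5.93% of all genes. None of the 19 aminoacyl-tRNA synthetases was called by limma, with 3 at an unadjusted p under 0.05 and a median of 0.04.

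Of 47 measured secreted factors of senescence 11 rose (23.4%, beside 7.41% of all genes), with a median of 0.13. The 3 that fell (6.38%) were near the 5.93% of all genes. CCL2, the monocyte chemoattractant, had the largest rise of all called genes that met the naming rule: it measured 7.94, 7.76 and 8.19 at 24 h and 10.19, 10.17 and 10.51 at 2 d (2.32 ± 0.14, 5.01-fold, adjusted p = 1.61e-09). CXCL8, interleukin 8, went from 8.74, 8.55 and 8.67 to 10.69, 10.55 and 10.96 (2.08 ± 0.28, adjusted p = 8.53e-05). IL1B, interleukin 1 beta, went from 6.27, 6.06 and 6.34, where 2 of 3 arrays were above background, to 7.94, 7.76 and 8.00 (1.68 ± 0.27, adjusted p = 0.000381). In all 3 every batch rose, as the naming rule required, and the time points did not overlap. IL1A was above background on no array at 24 h and on all 3 at 2 d, and was at least 1.61-fold higher. LIF, a cytokine of the interleukin 6 family, rose by 1.31 ± 0.23, and PAPPA, a protease of IGF-binding proteins, by 1.19 ± 0.18. IL6 did not pass (0.83 ± 0.28, adjusted p = 0.0565), although its 2 d arrays (6.99 to 7.37) lay above its 24 h arrays (6.45, 6.29 and 6.31). Its other called risers included CXCL1, ANGPTL4 and NRG1. Without batch A the calls of IL1B (adjusted p = 0.0655) and LIF (0.0804) were lost and 3 list members were called higher. IL1A lost its call in 5 of the 9 fits, and IL6 gained one without batch D, without the 24 h array of batch D, with the 6 arrays fitted alone, under normexp background correction and under a stricter filter on dim probes.

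Of 23 measured NF-kB pathway genes 6 rose, beside 7.41% of all genes, with a median of 0.18. IER3, an early response gene that protects from apoptosis, rose by 0.88 ± 0.16, from 11.73, 11.54 and 12.26 to 12.86, 12.54 and 12.75. IRAK2, a kinase downstream of the interleukin 1 receptor, rose by 0.67 ± 0.13 and NFKBIA, the inhibitor that NF-kB induces, by 0.58 ± 0.16. CEBPD, a factor of the acute phase response, rose by 0.61 ± 0.20. Without batch A IER3 (adjusted p = 0.134) and IRAK2 (0.101) lost their calls, and NFKBIA lost its call in 7 and CEBPD in 8 of the 9 fits. An NF-kB site was found in 5.87% of all promoters, in 9 of 34 (26.5%) of the secreted list and in 5 of 19 (26.3%) of the NF-kB list, but in 5.22% of the promoters of all genes that rose and 7.05% of those that fell. The promoter of CXCL1, chosen for display after its values were seen, is given as the example in capitals (chr4:73869143-73869392, plus strand), with 2 overlapping matches; CXCL1 measured 6.67, 6.69 and 7.05 at 24 h and 7.56, 7.63 and 8.07 at 2 d (0.95 ± 0.30, adjusted p = 0.0423).
CXCL1: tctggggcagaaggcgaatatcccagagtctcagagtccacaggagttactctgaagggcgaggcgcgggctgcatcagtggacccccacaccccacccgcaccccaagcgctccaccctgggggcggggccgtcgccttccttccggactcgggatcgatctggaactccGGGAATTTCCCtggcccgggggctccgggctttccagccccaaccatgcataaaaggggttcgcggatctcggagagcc
The matches lay at positions −79 to −69, counted from the start.

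CDK inhibitors and p53 targets moved in both directions: of 32 measured, 6 rose (18.8%) and 3 fell (9.38%), with a median of 0.13. The shares of all genes were 7.41% and 5.93%. CDKN2B, the INK4 inhibitor p15, measured 7.04, 6.91 and 7.63 at 24 h and 8.50, 8.51 and 8.74 at 2 d (1.39 ± 0.18, adjusted p = 4.29e-05). CDKN2A, the neighbouring INK4 locus that encodes p16 and ARF, had a mean of 7.34 ± 0.15 (SD, n = 3) at 24 h and 7.73 ± 0.11 at 2 d and did not pass (0.39 ± 0.18, adjusted p = 0.179). CDKN1A, the p53-induced inhibitor p21, rose by 0.44 ± 0.12 (adjusted p = 0.0168) on its brighter probe, and its second probe gave −0.07 and did not pass. GDF15, a stress cytokine that p53 induces, rose by 1.51 ± 0.28, from 8.71, 8.53 and 9.63 to 10.56, 10.29 and 10.57, with batch D standing higher than the others at 24 h. TP53I3, a p53-induced oxidoreductase, rose by 0.80 ± 0.14, and GADD45B, a stress-induced gene, fell by 0.64 ± 0.14 on the log2 scale. Without batch A GDF15 (adjusted p = 0.117) and GADD45B (0.158) lost their calls, and CDKN1A lost its call in 6 of the 9 fits, with adjusted p up to 0.376.

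Of 24 measured outputs of ERK signalling and its feedback 4 rose and 1 fell between 24 h and 2 d, beside 7.41% and 5.93% of all genes, with a median of 0.13. DUSP6, an ERK phosphatase, was at 7.09, 7.02 and 7.97 at 24 h and 8.23, 7.80 and 7.51 at 2 d, so that batches A and B went up and batch D went down (0.49 ± 0.29, adjusted p = 0.304). SPRY2 (0.14 ± 0.17) and SPRY4 (0.08 ± 0.24), feedback inhibitors of RAS signalling, DUSP5 (−0.36 ± 0.18), another ERK phosphatase, and EGR1 (0.47 ± 0.21), an immediate early factor, also did not pass. DUSP4, also an ERK phosphatase, was called higher (0.49, adjusted p = 0.0224), with 0.04 on a second probe that did not pass. Its call was lost in 6 of the 9 fits, with adjusted p up to 0.397. The values of the 4 risers ran from 0.49 for DUSP4 to 1.31 for LIF. FOSL1, an AP-1 subunit, fell by 0.60 ± 0.12 on the log2 scale, and ITPKA, an inositol kinase, rose by 0.77 ± 0.19, with its batch D array at 24 h (11.63) close to the 2 d arrays (11.72 to 11.79). Leaving out batch D gave calls for DUSP6 (0.96) and EGR1 (0.75). Without batch A FOSL1 lost its call (adjusted p = 0.0735), and ITPKA lost its call without batch A, without batch B and without the 24 h array of batch B (adjusted p up to 0.288). Of 19 immediate early genes 2 rose and 1 fell, with a median of −0.05; KLF2, a factor that limits inflammatory signalling in endothelium, fell by 1.12 ± 0.14 on the log2 scale, and BHLHE40, a stress-induced repressor, rose by 0.97 ± 0.20, a call lost without batch A and without batch B (adjusted p up to 0.143).

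Of 20 measured cholesterol genes 11 rose and 18 had positive values, beside 7.41% of all genes called higher, and the median was 0.52. HMGCS1, an early enzyme of the mevalonate pathway, measured 8.65, 8.85 and 9.11 at 24 h and 9.77, 10.07 and 10.66 at 2 d (1.30 ± 0.26, adjusted p = 0.00226). INSIG1, the sterol-regulated anchor of SCAP, went from 9.45, 9.66 and 10.02 to 10.60, 10.54 and 11.12 (1.05 ± 0.21, adjusted p = 0.00208), and its second probe rose by 0.69. MSMO1, the methylsterol oxidase, rose by 1.02 ± 0.18 and SQLE, squalene epoxidase, by 0.73 ± 0.19. Batch D held the highest HMGCS1 and INSIG1 values at both time points, and each batch rose. Of 13 fatty acid synthesis genes 5 rose, with a median of 0.25: ACSS2, an acetyl-CoA synthetase (0.76 ± 0.12, with 0.16 on a second probe that did not pass), the desaturases FADS1 (0.64 ± 0.15) and SCD (0.59 ± 0.15), FASN, fatty acid synthase (0.51 ± 0.14), and ACACA. Without batch A none of the 20 cholesterol genes was called, with adjusted p of 0.0641 for HMGCS1, 0.104 for INSIG1 and 0.0661 for MSMO1; without batch B 9 were called and without batch D 10. SQLE and FASN lost their calls in 6 of the 9 fits each and SCD in 3, and ACSS2 (adjusted p = 0.0564) and FADS1 (0.111) without batch A. CCAAT boxes were found in 15 of 18 cholesterol promoters (83.3%) beside 35.6% of all, and the sterol element in 1 of 18 (5.56%) beside 0.846%. CCAAT was as common in the histone list (84.6%) and in the unfolded protein and ATF4 list (81.8%). In all genes that rose its share was 32.2%. MSMO1 (chr4:165327419-165327668, plus strand) is shown with its 4 CCAAT matches in capitals.
MSMO1: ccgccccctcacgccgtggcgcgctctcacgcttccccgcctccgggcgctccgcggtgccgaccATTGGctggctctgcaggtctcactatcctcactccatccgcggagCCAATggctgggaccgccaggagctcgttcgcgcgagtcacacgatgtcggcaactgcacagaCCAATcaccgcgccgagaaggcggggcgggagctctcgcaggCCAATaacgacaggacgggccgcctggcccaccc
The matches lay between positions −185 and −30, counted from the start.

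Of 36 measured autophagy genes 4 rose, a share near the 7.41% of all genes called higher, with a median of 0.10. SQSTM1, the cargo receptor p62, measured 10.11, 9.92 and 10.47 at 24 h and 11.36, 11.30 and 11.39 at 2 d (1.18 ± 0.19, adjusted p = 0.000312), and the arrays of batches A, B and D closed up at 2 d. WIPI1, which binds the lipid of forming autophagosomes, rose by 0.78 ± 0.13, GABARAPL1, an ATG8 protein, by 0.47 ± 0.15 and ULK1, the initiating kinase, by 0.43 ± 0.14. MAP1LC3B, the ATG8 protein LC3B, did not pass (0.20 ± 0.10, adjusted p = 0.206), and neither did ULK3, a relative of ULK1 (0.06 ± 0.10, adjusted p = 0.787). Without batch A SQSTM1 (adjusted p = 0.062) and WIPI1 (0.0593) lost their calls, and GABARAPL1 and ULK1 lost theirs in 8 of the 9 fits. ULK1 was also not called under normexp background correction, median centring, no filter on dim probes or the mean over its probes, with adjusted p up to 0.349 over all alternatives.

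Of 43 measured lysosomal genes 12 rose (27.9%) and 1 fell (2.33%), beside 7.41% and 5.93% of all genes, with a median of 0.18. GM2A, an activator of ganglioside breakdown, measured 10.01, 10.03 and 10.04 at 24 h and 10.66, 10.67 and 10.68 at 2 d (0.65 ± 0.08, adjusted p = 2.76e-05). NPC1, which exports cholesterol from lysosomes, rose by 0.81 ± 0.14, from 8.70, 8.57 and 8.11 to 9.26, 9.29 and 9.24. LIPA, the acid lipase, rose by 0.61 ± 0.13 and IDS, a sulfatase, by 0.61 ± 0.10. The protease LGMN fell by 0.42 ± 0.13 on the log2 scale. With the 6 arrays fitted alone 7 lysosomal genes were called higher, and without batch A 2 were and without batch B 6; LIPA (adjusted p = 0.0975) and IDS (0.0697) lost their calls without batch A. CD68, a lysosomal membrane protein that also marks macrophages, rose by 0.62 ± 0.10, and CSF1R, a macrophage receptor, by 0.43 ± 0.10, whereas 8 of the 11 immune genes were above background on none of the 6 arrays. Of 13 brakes of mTOR and PI3K 1 rose (7.69%, near the share of all genes), PIK3IP1, an inhibitor of PI3K (0.79 ± 0.15). The list median was 0.16. CD68 (adjusted p = 0.0655) and PIK3IP1 (0.0602) lost their calls without batch A, and CSF1R lost its call in 4 of the 9 fits.

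**Figure D3:**
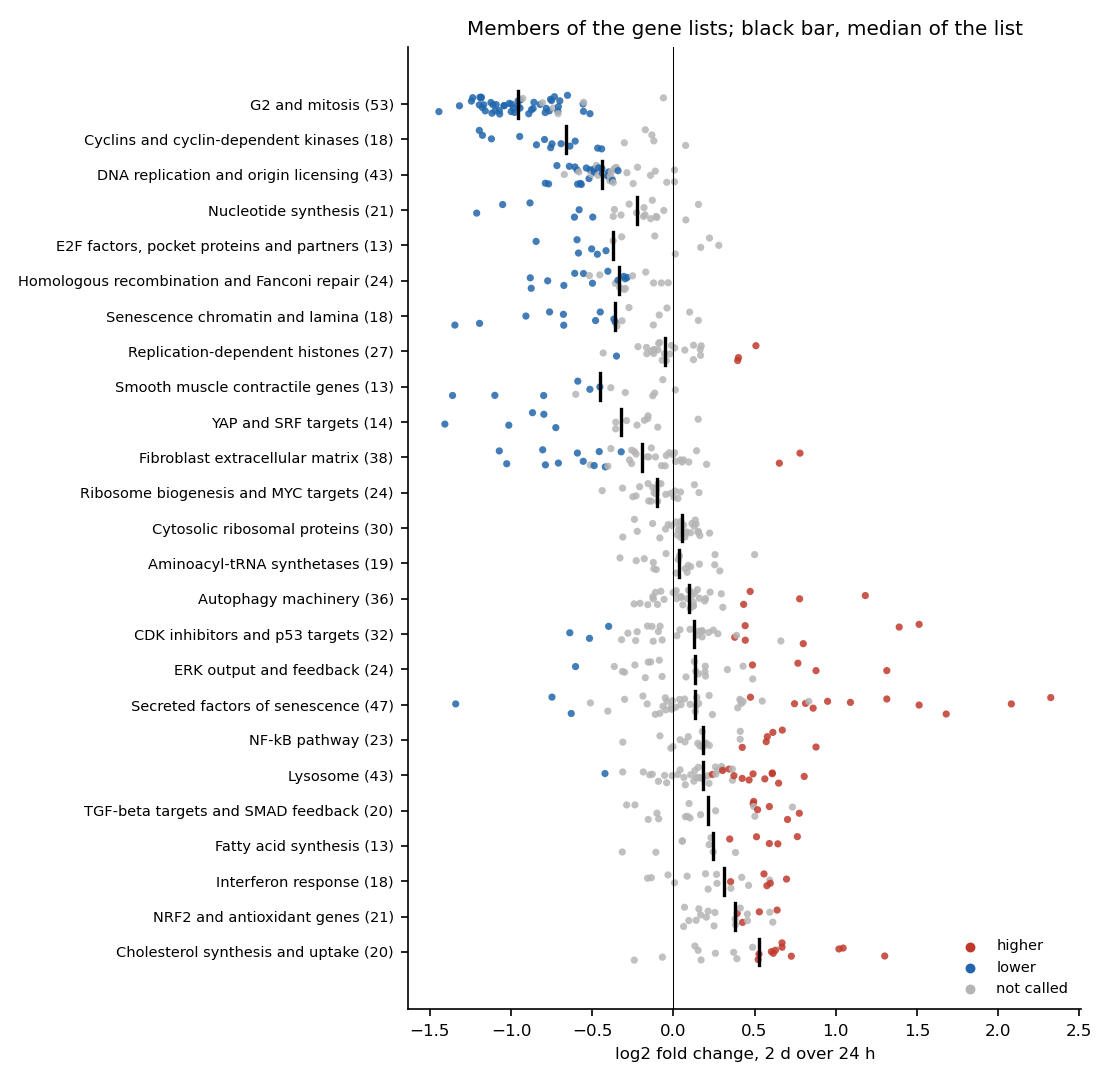
Each point is a measured member of a gene list, placed by its log2 fold change, 2 d over 24 h (x axis); lists are on the y axis with their number of measured genes, red and blue points passed the test, and the black bar is the list median. The medians run from −0.96 for G2 and mitosis to 0.52 for cholesterol synthesis and uptake.

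Stress and metabolic lists followed, set beside the 7.41% of all genes called higher and the 5.93% called lower. Of all 10893 genes, 5742 had positive values. Of 25 genes of the unfolded protein and ATF4 responses 5 rose and 1 fell, with a median of 0.17; HSPA5, the chaperone BiP, measured 9.74, 9.76 and 10.24 at 24 h and 10.68, 10.69 and 10.86 at 2 d (0.83 ± 0.13, adjusted p = 0.000318), and STC2, a secreted glycoprotein of the ATF4 arm, fell by 0.75 ± 0.10 on the log2 scale. All 21 measured NRF2 and antioxidant genes had positive values and 4 rose, with a median of 0.38: HMOX1, heme oxygenase (0.64 ± 0.20), FTL, ferritin light chain (0.53 ± 0.11), CAT, catalase (0.43 ± 0.10), and TKT, transketolase (0.39 ± 0.11, with overlapping groups). Of 18 interferon response genes 5 rose, with a median of 0.31, led by IFIT2 (0.70 ± 0.18), IRF9, which partners STAT proteins (0.60 ± 0.09), IFI44 (0.58 ± 0.14) and the ubiquitin-like modifier ISG15 (0.56 ± 0.12). In the glycolysis and hypoxia list 3 of 27 genes rose (11.1%) and 1 fell (3.70%), near those shares, with a median of 0.13. ALDOC, an aldolase, rose by 1.13 ± 0.16 and ADM, adrenomedullin, fell by 0.77 ± 0.11 on the log2 scale. None of 30 cytosolic ribosomal protein genes was called (limma; 1 at an unadjusted p under 0.05, median 0.05) and none of 24 ribosome biogenesis and MYC target genes (2 at an unadjusted p under 0.05, median −0.10). IRF9 lost its call without batch A (adjusted p = 0.0519), FTL and ISG15 without batch A and without batch B, CAT and IFI44 in 3 of the 9 fits, IFIT2 in 5, TKT in 6 and HMOX1 in 7, with adjusted p up to 0.396.

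Other genes among the largest rises have roles outside these lists. DACT1, which modulates WNT signalling, measured 7.50, 7.49 and 7.23 at 24 h and 8.92, 8.61 and 8.73 at 2 d (1.35 ± 0.14, adjusted p = 1.06e-05). KYNU, kynureninase of tryptophan breakdown, went from 7.49, 7.45 and 7.32 to 8.69, 8.64 and 9.07 (1.38 ± 0.21, adjusted p = 0.000173). HEY1, a repressor that Notch induces, rose by 1.23 ± 0.21, from 7.28, 7.32 and 6.98 to 8.45, 8.49 and 8.33. Every 2 d array lay above every 24 h array in these genes. SIPA1L2 (1.25 ± 0.15) and RAB27B, a GTPase of vesicle secretion (1.32 ± 0.26, with 0.26 on a second probe that did not pass), completed the 15 largest rises. HEY1 lost its call without batch A (adjusted p = 0.0669). Of the remaining marker genes, KRT18, a keratin also found in cultured fibroblasts, fell by 0.46 ± 0.12 on the log2 scale on 1 of its 3 probes, and TEK, an angiopoietin receptor, by 0.71 ± 0.17; KRT18 lost its call in 5 of the 9 fits and TEK without batch A and without batch B (adjusted p up to 0.167). The medians of the 4 measured epithelial and 6 measured endothelial genes were −0.11 and 0.03, and that of the 2 measured immune genes was 0.52; the part of these genes in the other results was not tested.

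The change from 24 h to 2 d was next set against the change in the first 8 h of 4-OHT, which shares no array with it. The difference between the 2 intervals was tested in the same fit and passed for 1696 genes (15.6%), 999 with a more positive and 697 with a more negative value in the later interval. Without batch A 217 genes passed, without batch B 687 and without batch D 1860. Of the 807 genes that rose from 24 h to 2 d, 84 (10.4%) had fallen and 23 (2.85%) had risen from 0 h to 8 h, and these 84 made up 25.4% of the 331 genes that fell in the first 8 h. Of the 646 that fell from 24 h to 2 d, 44 (6.81%) had risen and 18 (2.79%) had fallen in the first 8 h. Over all 10893 genes, 331 fell and 292 rose in the first 8 h, so the shares of 2.85% and 2.79% were near those of all genes. In the G2 and mitosis list 41 of 53 genes differed between the intervals, all toward lower values later, with a median of 0.24 from 0 h to 8 h. CENPA gave 0.57 in the first 8 h and −1.44 later, a difference of −2.02 ± 0.26 (adjusted p = 4.89e-05). E2F2 did not differ between the intervals by this test: it gave −0.90 in the first 8 h and −0.85 later, a difference of 0.05 (adjusted p = 0.9). SMAD6 gave −1.63 and then 0.78, a difference of 2.41 (adjusted p = 6.3e-05), and ID2 gave −1.03 and then 0.70 (difference 1.73, adjusted p = 0.00024). From 6 d to 8 d, the other interval without shared arrays, 189 genes were called, 77 higher and 112 lower. Of the 807 risers 12 (1.49%) were among the 77 and 29 (3.59%) among the 112. Of the 646 that fell, 5 (0.774%) were among the 77 and 8 (1.24%) among the 112. Among genes not called from 24 h to 2 d these shares were 0.636% and 0.794%.

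**Figure D4:**
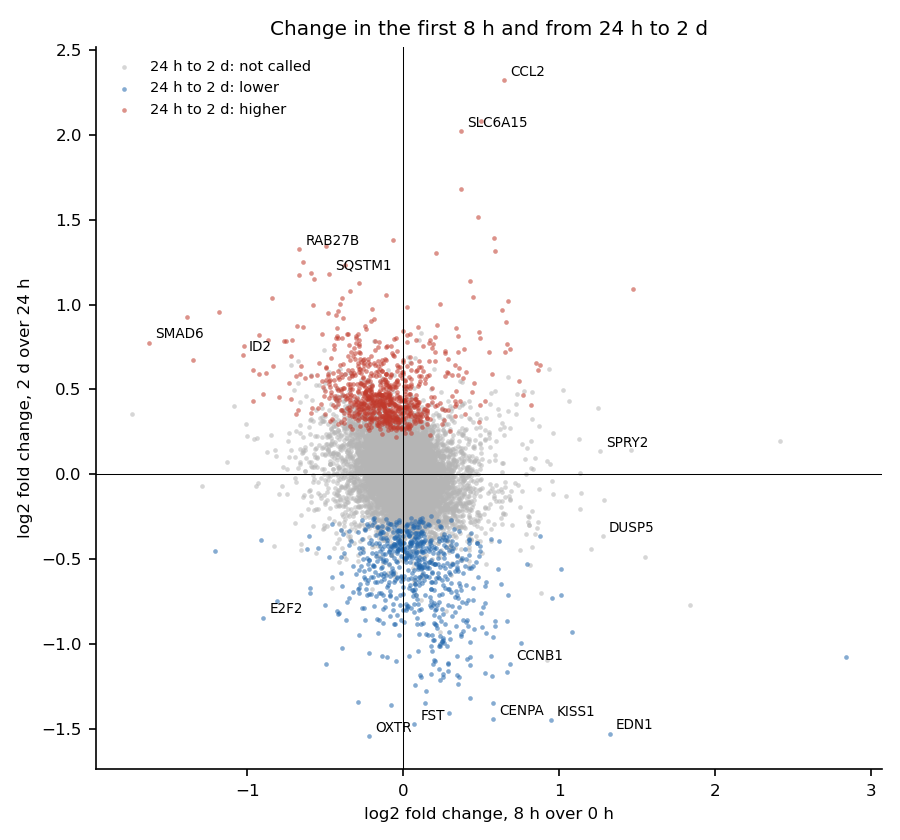
Each point is a gene, with its log2 fold change from 0 h to 8 h on the x axis and from 24 h to 2 d on the y axis; colours give the call for 24 h to 2 d. EDN1 and KISS1 lie at the lower right (up in the first 8 h, down later), SMAD6 and ID2 at the upper left, and E2F2 at the lower left.

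Levels over the whole course placed the interval for each gene, with neighbouring intervals sharing arrays and given only side by side. CENPA had a mean log2 intensity of 9.02 ± 0.22 (SD, n = 3) at 0 h, 9.59 ± 0.13 at 8 h, 9.75 ± 0.05 at 24 h, 8.31 ± 0.29 at 2 d and 6.34 ± 0.38 at 4 d. The G2 and mitosis list had a median log2 fold change of 0.39 for 24 h over 0 h, −0.96 for 2 d over 24 h and −1.81 for 4 d over 2 d, and the DNA replication list −0.03, −0.44 and −1.12. CXCL8 was at 10.72 at 0 h, 8.65 at 24 h, 10.73 at 2 d and 14.04 at 4 d, and so was at 2 d close to its level before 4-OHT. CCL2 was at 8.65 at 0 h, 9.68 at 2 h, 7.97 at 24 h and 10.29 at 2 d, stood at 10.38 at 6 d, and fell from 6 d to 8 d by 0.62 ± 0.14 on the log2 scale (adjusted p = 0.0261). DACT1 (8.86 at 0 h, 7.41 at 24 h and 8.75 at 2 d) and SIPA1L2 (8.38, 6.92 and 8.17) were likewise lower at 24 h than on either side, whereas SLC6A15 climbed from 8 h on. IL1B was at 6.22 at 24 h, 7.90 at 2 d and 12.98 at 4 d, so the larger step came after 2 d. The cholesterol list had medians of 0.05, 0.52 and −0.06 over the same 3 steps and the lysosome list −0.16, 0.18 and 0.38.

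**Figure D5:**
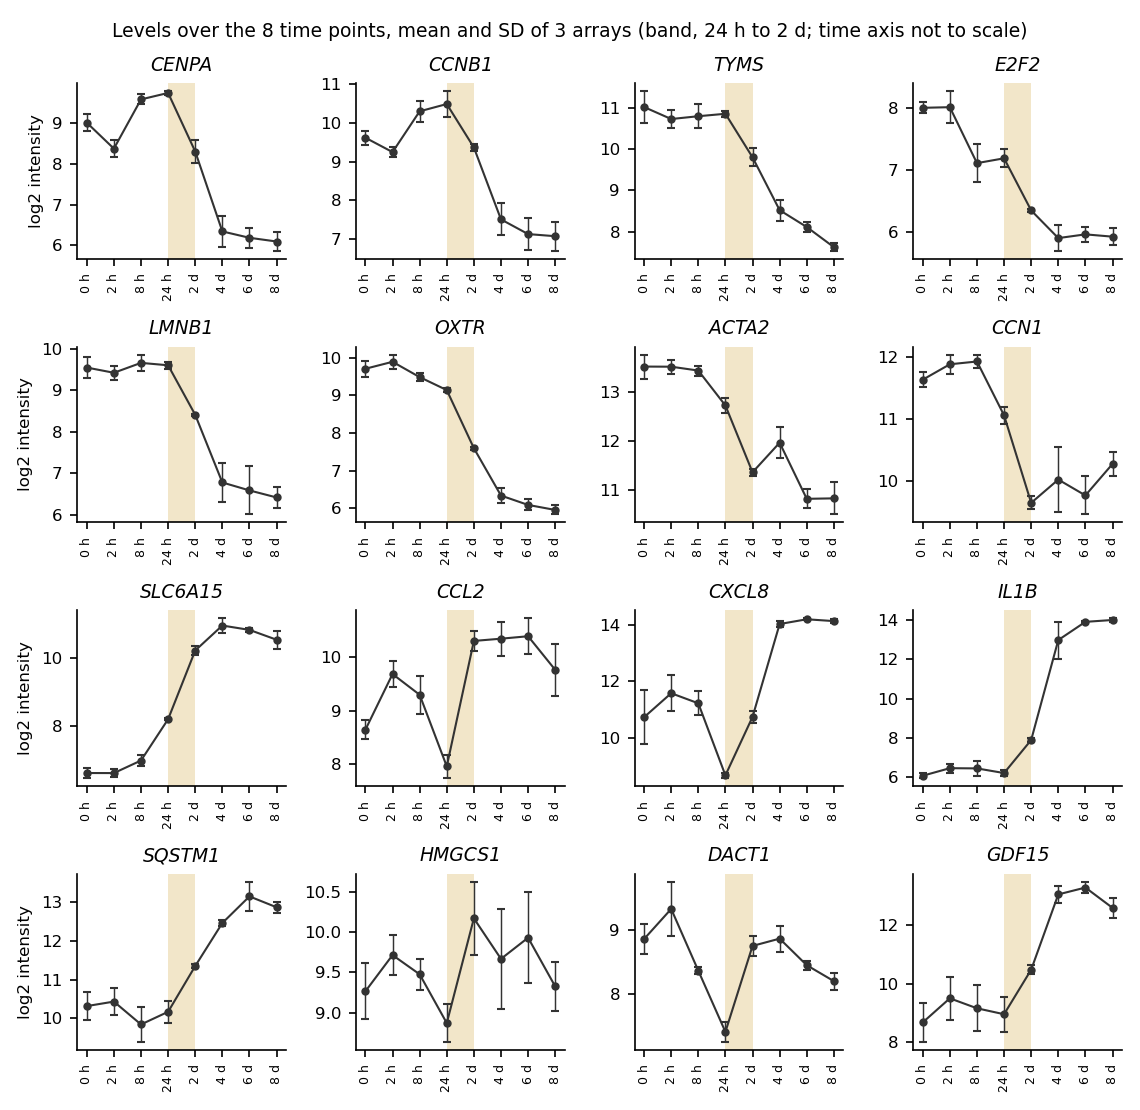
Mean log2 intensity (y axis) of 16 genes at the 8 time points (x axis, not to scale) with error bars of 1 SD over 3 arrays; the band marks 24 h to 2 d. CENPA and CCNB1 are highest at 24 h and drop from there, CCL2, CXCL8 and DACT1 have their lowest point at 24 h, and SLC6A15 rises from 8 h to 4 d.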

How the data were processed

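RNA of IMR90 ER:RAS-G12V cells was hybridised to Illumina human BeadChips, 24 arrays in 8 groups of 3, per the labels. The deposited log2 intensities of the series' value table were used as the authors normalized them; their steps are not given in the sources used here. Those values differed from a quantile normalization of the deposited per-array log2 values by a median of 0.00274, so quantile normalization without background subtraction accounts for them to that precision. A probe was kept where it exceeded its array's background (the 0.01 upper tail of a normal fitted to the spread below the mode) on at least 3 of 24 arrays, which left 12362 probes; the kept probe with the highest mean stood for each gene, and 1186 genes had several. Probe names came from the platform annotation: of 48701 probes, 23687 had 1 symbol, 35 several and 24979 none.

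limma 3.58.1 (R 4.3.3) was fitted to all 24 arrays with 8 group means and the batch letter as a block, with Benjamini-Hochberg adjustment over all 10893 genes, and was tested on simulated data. The labels name the letter as a biological batch, which is where the pairing comes from. In a separate fit with no block, residuals of same-letter 24 h and 2 d arrays correlated at −0.23 (A), −0.14 (B) and −0.40 (D). Over all time points the mean correlation was 0.04 for arrays of the same letter and −0.02 for different letters. The pairing therefore rests on the label and not on a shared pattern in these values. Whether batches are separate cultures beyond that label is not stated, so p-values measure the spread between these arrays. Where a gene was above background on no array of the dimmer group, the fold is a bound against the lowest signal above background.

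Genes named are the 15 largest rises and falls among called genes that moved the same way in all batches and were above background on all arrays of 1 group, up to 4 called members of each of 34 gene lists, and a list of fixed genes; other list members were named after their values were seen. The members and lists were chosen with earlier results of these data known. Alternatives tried were no block, the 6 arrays alone, normexp background correction, median centring, 2 other filters on dim probes, the mean over probes, and leaving out each array or batch.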

Additional observations from a re-analysis of the deposited data

Results flagged for a closer look

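The change from 24 h to 2 d differed from the change over the first 8 h, by a test of the difference itself in the limma fit, for 1696 genes. This was 15.6% of all genes tested. Among the 30 largest changes, 26 passed this test. Those 30 were chosen by their change from 24 h to 2 d, which is itself part of the difference tested. The choice therefore favoured both a pass and the direction of the difference, and nothing is concluded from the count. Of the 15 largest rises 12 did, each with a more positive value in the later interval; the differences in log2 fold change were CCL2 (1.68), CXCL8 (1.59), SLC6A15 (1.65), IL1B (1.31), CDKN2B (0.81), KYNU (1.45), DACT1 (1.84), RAB27B (1.99), SIPA1L2 (1.89), HEY1 (1.61), PAPPA (1.78) and SQSTM1 (1.66). Of the 15 largest falls 14 did, each with a more negative value in the later interval, and the differences were OXTR (−1.32), EDN1 (−2.85), FST (−1.54), KISS1 (−2.39), CENPA (−2.02), CCN1 (−1.70), ACTA2 (−1.28), FAM83D (−1.92), HMGB2 (−1.49), KIF20A (−1.74), DKK1 (−1.43), NUSAP1 (−1.32), CDCA3 (−1.59) and RRM2 (−1.45). GDF15, LIF, HMGCS1 and IGFBP3 did not pass. With 3 arrays in a group, no test for a single outlying array was made.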

How the results depend on the processing

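No called value among those recomputed changed direction under any alternative run; CXCL1, THBS2, LAMA4, LGMN, ESM1, PRRX2 and MXD4 were among the genes not recomputed one by one. The fit with no replicate block called 1381 genes, 1343 of them shared with the 1453, and the 6 arrays alone gave 1146 calls (999 shared) and 7 lysosomal genes higher. Over the 6 fits without 1 array and the 3 without 1 batch, the number of genes called ran from 164 to 1875, of genes higher from 76 to 926, of genes lower from 88 to 949, and of genes differing from the first 8 h from 217 to 1860. The lowest of each of these came without batch A and the highest without batch D. List members called higher ran from 0 to 11 for cholesterol synthesis, 2 to 12 for lysosome and 3 to 16 for secreted factors. List members called lower ran from 3 to 12 for cyclins, 0 to 20 for DNA replication, 1 to 11 for matrix, 12 to 49 for G2 and mitosis, 3 to 10 for chromatin and lamina, and 2 to 6 for smooth muscle. Over the alternatives that kept all arrays of both groups, 1037 of 1070 values of single genes kept their side of the threshold, 27 lost a call and 6 gained one. The 3 fits without 1 batch lost the same number of arrays. They called 164 genes without batch A, 621 without batch B and 1875 without batch D, beside 1453 with all arrays. The cause of these differences was not tested. Signal over background limits the dim genes, for which only a bound could be given.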

Other observations

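By values outside the rule for named genes and chosen after they were seen, ESM1, an endothelial proteoglycan, rose by 2.84 in the first 8 h and fell by 1.08 ± 0.24 on the log2 scale from 24 h to 2 d, a difference of −3.92 (adjusted p = 9.43e-07, limma, n = 3 arrays per time point). PRRX2 and MXD4 went the other way, with values of −1.39 and −1.35 in the first 8 h and 0.93 and 0.67 later.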
